A study of Drosophila melanogaster with 2 samples.

Results

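The early Drosophila embryo is patterned along its length by a cascade of transcription factors, and the 10 genes described here are core members of it: the maternal gene bcd, the gap genes hb, Kr, kni, gt and tll, and the pair-rule genes eve, ftz, run and odd. They were taken as a named list, 10 of the 13945 protein-coding genes annotated on the 6 chromosome arms analysed, and every region of enriched Sima chromatin immunoprecipitation whose summit lay in the gene body or up to 5000 bp outside it was assigned to the gene. Sima is the fly ortholog of the alpha subunit of the hypoxia-inducible factor. Chromatin came from whole Drosophila melanogaster embryos aged 0 to 24 h, male and female together, of the transgenic strain sima-RB-GFP. The transgene of this strain encodes Sima isoform RB fused at its C-terminal end to GFP, and the chromatin was pulled down through the tag with an antibody to GFP. The data are 2 biological replicates of this 1 group. No control group, oxygen treatment or second genotype was analysed here, so no test over samples was possible and all values below are descriptions. Both replicates carry the tagged protein, and the collection spans all of embryogenesis, so binding in the segmenting embryo and in later stages cannot be told apart.

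In this cascade, maternal products such as the Bicoid protein are graded along the egg and switch on the gap genes in broad domains. Gap proteins, most of them zinc-finger or nuclear-receptor repressors, then place the stripes of the pair-rule genes. The genes are known for regulation from enhancers away from the start site, placed upstream, downstream or within introns, each driving a separate domain or stripe. No enhancer map was used here, so distal sequence means any place in the window over 500 bp from every annotated transcript start.

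Of the 10 genes, only bcd held a region of the list that passed the irreproducible discovery rate (IDR) threshold, which contains 1272 regions. The same count over all protein-coding genes was 2727 of 13945, or 19.6%, and 1 of 10 members is 10%. Counting only summits within 500 bp of a gene's own start site, again 1 of 10 members (bcd) was bound, against 6.22% of protein-coding genes. In the longer relaxed list of 30000 regions called on the pooled reads, 9 of 10 members held a region in the window, against 90.6% of genes, and 4 of 10 held one at a start site, against 48%. Each of these shares of the members is near its background or rests on 1 gene.

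The sequences of 101 bases around 7 of the summits are printed because the results turn on them. The first 5 are regions found in both replicates, at the bcd promoter, upstream of bcd, at the second start site of hb, in the coding sequence of kni and downstream of odd. The last 2 are an upstream region of tll and an internal region of kni, which hold words described with the sequence results. Sequence is from the Release 6 genome in RefSeq, the dm6 build used by the region lists, and is given on the strand of the gene. Capitals mark the words ACGTG and GCGTG (the core of the hypoxia response element), GAGAG (bound by GAGA factor), TAATCC (bound by Bicoid) or their reverse complements.
bcd promoter, chr3R:6759619-6759719, minus strand: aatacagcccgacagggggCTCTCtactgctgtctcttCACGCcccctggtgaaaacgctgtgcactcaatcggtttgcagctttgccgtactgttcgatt
bcd upstream, chr3R:6763024-6763124, minus strand: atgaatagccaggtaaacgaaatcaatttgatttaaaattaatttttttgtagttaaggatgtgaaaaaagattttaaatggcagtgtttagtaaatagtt
hb second start, chr3R:8694231-8694331, minus strand: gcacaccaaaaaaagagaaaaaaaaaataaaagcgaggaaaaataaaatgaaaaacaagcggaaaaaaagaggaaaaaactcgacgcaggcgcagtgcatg
kni coding sequence, chr3L:20692914-20693014, minus strand: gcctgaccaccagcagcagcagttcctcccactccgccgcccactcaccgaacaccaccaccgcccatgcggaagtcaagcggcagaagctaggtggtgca
odd downstream, chr2L:3600976-3601076, minus strand: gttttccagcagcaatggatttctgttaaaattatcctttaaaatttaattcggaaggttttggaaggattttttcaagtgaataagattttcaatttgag
tll upstream, chr3R:30850810-30850910, plus strand: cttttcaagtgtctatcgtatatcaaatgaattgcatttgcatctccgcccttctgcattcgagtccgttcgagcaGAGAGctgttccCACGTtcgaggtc
kni internal, chr3L:20694322-20694422, minus strand: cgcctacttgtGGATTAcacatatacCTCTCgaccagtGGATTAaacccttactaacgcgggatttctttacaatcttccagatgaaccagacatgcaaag

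The relaxed lists gave 23 pooled regions at the 10 genes, with 28 regions in replicate 1 and 28 in replicate 2. Signals are given as the rank within a list, 1 being the strongest of 30000, and as the ratio to that list's median signal, because the scale of the peak caller's signal is not given in the sources used here. The weakest region of the IDR list had a pooled ratio of 2.76. At the members only the bcd promoter region reached that value, and the next ratio was 1.84. Within the genes' windows the regions were spread unevenly, from 6 pooled regions at bcd to 0 at gt.

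**Figure D1:**
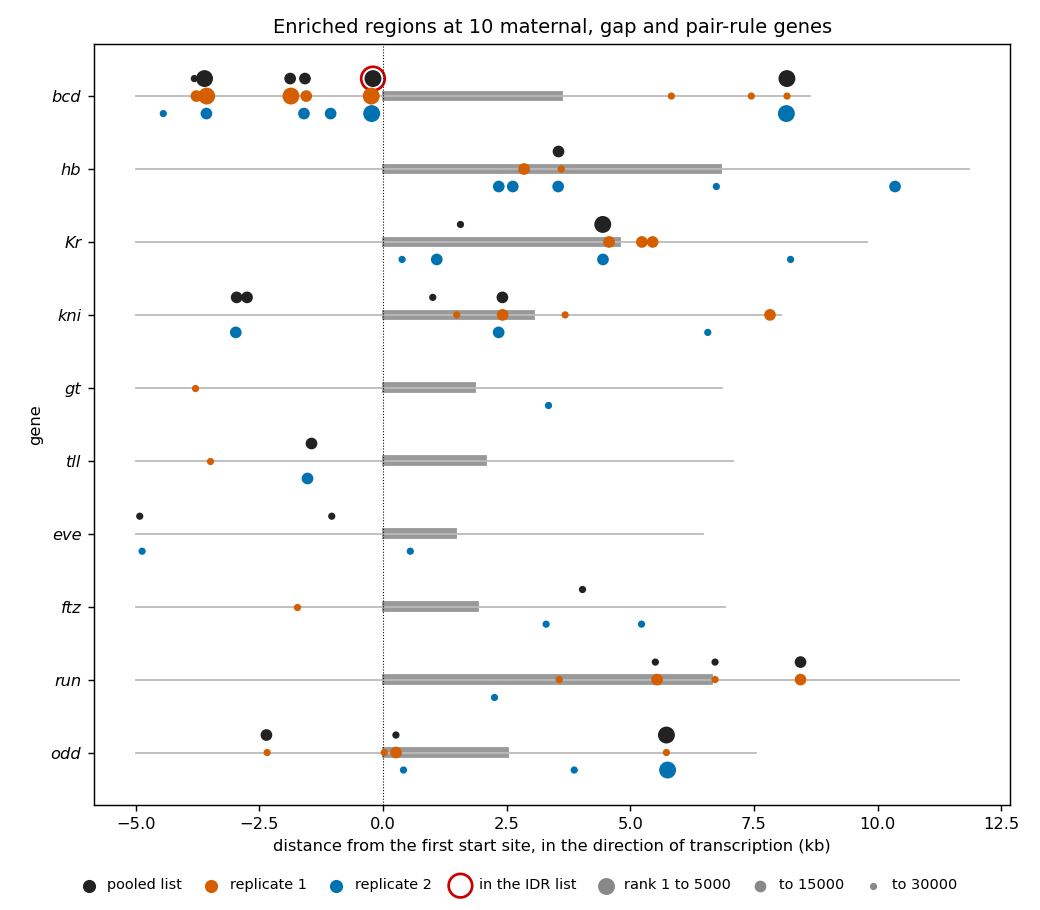
Regions at the 10 genes by distance from the first start site (kb, in the direction of transcription), with the gene body as a thick grey bar and 5 kb on each side as a thin line. Dots are summits in the pooled list, replicate 1 and replicate 2, larger dots have better ranks, and the single ringed dot is the IDR region at the bcd promoter.

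bcd (3R 6755842 to 6759466, minus strand) encodes the homeodomain protein that forms the anterior gradient. Its IDR region (chr3R:6759471-6759866) had its summit 203 bp upstream of the start site, in intergenic sequence between bcd and Ama. It ranked 1270 of the 1272 IDR regions, so it stood just inside the threshold. Replicate 1 listed a summit 35 bp away with a ratio of 1.72 at rank 3117, and replicate 2 one 26 bp away with a ratio of 3.3 at rank 897. The replicates therefore placed the region at the same site and differed in its strength (mean ratio 2.51 ± 1.12, SD, n = 2). Among the 1272 strongest regions of each replicate, it was listed for replicate 2 and not for replicate 1.

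bcd also had more pooled regions in its window than any other member, 6, or 4.4 per 10 kb. The next strongest lay 3608 bp upstream at rank 2988, and both replicates listed it (ratios 1.56 and 1.31; mean 1.43 ± 0.176, SD, n = 2). This site is in an intron shared by Ama, an immunoglobulin-superfamily gene, and a non-coding RNA, within 500 bp of a start site of Ama, so it is a start-site region of a neighbour. The region at rank 4189 lay 4542 bp beyond the 3' end of bcd, 2894 bp downstream of the start of the homeobox gene zen, with ratios of 0.965 and 1.95 in replicates 1 and 2 (mean 1.46 ± 0.696, SD, n = 2). A weaker region 1578 bp upstream, at rank 5948, was also in both replicates (ratios 1 and 1.18; mean 1.09 ± 0.129, SD, n = 2). The remaining pair, 1877 and 3814 bp upstream at ranks 12592 and 25854, had a summit within 100 bp in replicate 1 alone. For 5 of the 6 the nearest protein-coding start site was that of Ama or zen, and only the promoter region was nearest to bcd itself.

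hb (3R 8690980 to 8697822, minus strand) encodes a zinc-finger protein with both a maternal and a gap role, and has 2 annotated start sites 3222 bp apart. Its 1 pooled region had a summit 319 bp downstream of the second start site, in an intron, at rank 7094. Replicate 2 placed a summit at the same base with a ratio of 1.18, and replicate 1 one 62 bp away with a ratio of 0.78 (mean 0.982 ± 0.285, SD, n = 2). The region was thus found in both replicates, a little above the list median in replicate 2. In replicate 1 it was near the foot of the list, at rank 26044 of 30000, where the lowest ratio was 0.724. Replicate 1 had 1 further region near that start site, at rank 14901, and replicate 2 had 4 others, none better than rank 13392. No list had a summit within 500 bp of the first start site or in the 5000 bp upstream of it.

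Kr (2R 25226611 to 25231394, plus strand) encodes a zinc-finger repressor of the central gap domain and lies inside the larger transcription unit of CG9380 on the other strand. Its stronger pooled region had rank 4061 and a summit in the 3' UTR, 4443 bp from the start site, with a pooled ratio of 1.63. Replicate 2 listed it 4 bp away with a ratio of 1.07, while the nearest summit of replicate 1 was 128 bp away (rank 6447, ratio 1.36), outside the 100 bp used to match. With a limit of 200 bp instead, this region would count as matched in both replicates. The other pooled region, in the coding sequence at rank 27194, had no counterpart within 100 bp. At the start site itself, only replicate 2 listed a region, 386 bp into the gene at rank 28588.

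kni (3L 20692330 to 20695378, minus strand) encodes a nuclear-receptor-type repressor of the abdominal gap domain. Of its 4 pooled regions the strongest, at rank 8001, lay in the coding sequence 1592 bp downstream of the second start site. Replicate 1 had it at a ratio of 1.15 and replicate 2 at 1.33 (mean 1.24 ± 0.133, SD, n = 2). Upstream of the gene, regions at 2959 and 2749 bp had ranks 10475 and 12196, and the first was matched in replicate 2 alone (ratio 1.24). The only region within 500 bp of a kni start site, at rank 27298, was among the weakest and was matched in neither replicate.

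gt (X 2427113 to 2428967, minus strand), which encodes a leucine-zipper repressor, had no pooled region in its window. Replicate 1 listed 1 region 3805 bp upstream at rank 22440, and replicate 2 listed 1 region downstream, in the coding sequence of CG32797, at rank 18681. The 2 sites are on opposite sides of gt, so nothing was shared between the replicates there. tll (3R 30852315 to 30854400, plus strand), a nuclear-receptor gene of the embryo's ends, had 1 pooled region 1455 bp upstream at rank 12853. Replicate 2 listed it 80 bp away with a ratio of 1.31 at rank 6777, and the only region of replicate 1 lay elsewhere, 3491 bp upstream at rank 19368.

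The pair-rule genes among the members had no IDR region and few strong ones. Over all protein-coding genes, 19.6% had an IDR region in the window. eve (2R 9979319 to 9980795, plus strand), a homeobox gene expressed in stripes, had pooled regions 4918 and 1036 bp upstream at ranks 21906 and 23115. The farther one lay in an exon of a non-coding RNA and was matched in replicate 2 (ratio 0.986). Replicate 1 listed no region at all in the eve window. ftz (3R 6864324 to 6866244, plus strand), the homeobox gene of the complementary stripes, had 1 pooled region, 2100 bp past its 3' end at rank 27447, and neither replicate matched it. It was the poorest best rank among the 9 genes with a pooled region. The regions of the 2 replicates near ftz, at ranks from 19872 to 29138, did not coincide.

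run (X 20690670 to 20697321, plus strand) encodes the founding Runt-domain protein and has start sites 3769 bp apart. All 3 of its pooled regions were matched in replicate 1 and none in replicate 2. They lay in the coding sequence (rank 15324), 62 bp past the 3' end (rank 28714) and 1790 bp past it (rank 11714), with ratios in replicate 1 of 1.31, 0.75 and 1.06. Replicate 2 listed only 1 region, in an intron at rank 18343. The run regions therefore rest on 1 library.

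odd (2L 3604224 to 3606756, minus strand), which encodes a zinc-finger repressor, held the strongest region of the pair-rule genes among the members. Its summit lay 3198 bp past the 3' end, in intergenic sequence, at rank 3666. Replicate 1 placed a summit on the same base with a ratio of 0.951 (rank 16929) and replicate 2 one 24 bp away with a ratio of 2.08 (rank 2035; mean 1.52 ± 0.8, SD, n = 2). The position was shared, and the strength came mostly from replicate 2. At the start site, a region in the 5' UTR 261 bp downstream had rank 18602, with a ratio of 1.05 in replicate 1, and the nearest summit of replicate 2 was 153 bp away.

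**Figure D2:**
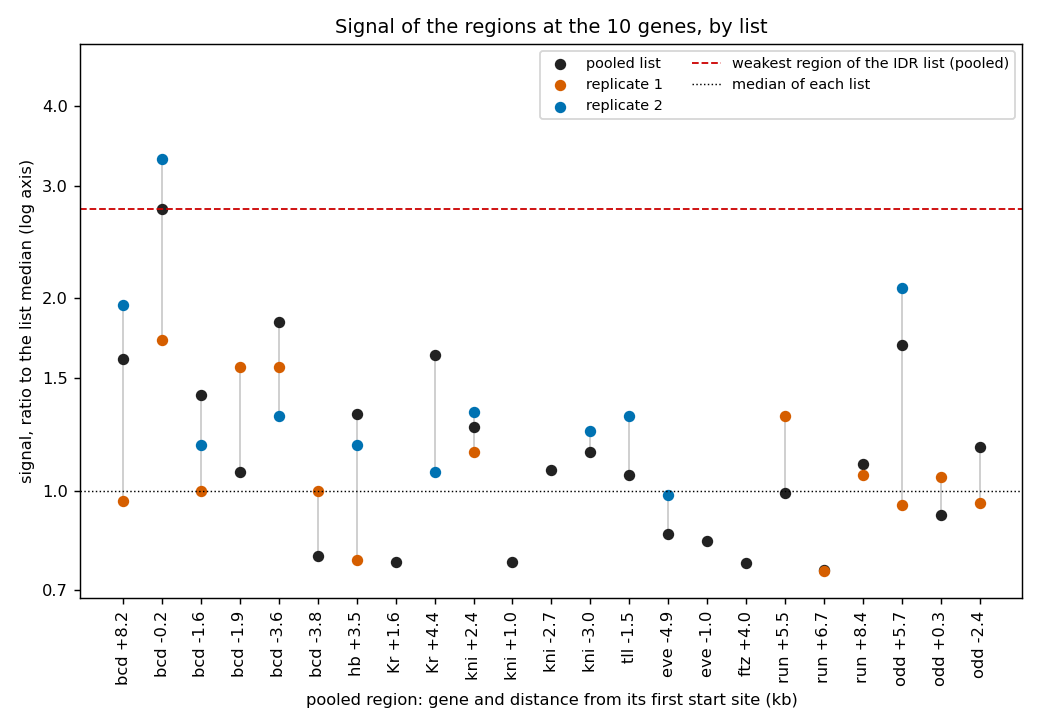
Signal of the 23 pooled regions (ratio to the list median, log axis) in the pooled list and, where a summit lay within 100 bp, in each replicate; grey lines join the values of 1 region. Only the bcd promoter region reaches the dashed line of the weakest IDR region, at 2.76.

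Replicate agreement at these genes was near that of the whole list. Of the 23 pooled regions, 7 (30.4%, Wilson 95% interval 15.6 to 50.9) had a summit within 100 bp in both replicates, against 23.1% of all pooled regions. They lay at bcd (4), hb, kni and odd. The share of all protein-coding genes with such a region was not computed, so no count by gene is read from this. A further 7 were matched in replicate 1 alone (30.4%, against 35.2% of all pooled regions) and 4 in replicate 2 alone (17.4%, against 24.3%). The other 5 were matched in neither (21.7%, against 17.4%). All 7 regions seen in both replicates ranked in the upper 15000 of the pooled list, as did 6409 of the 6921 such regions of the whole list. Of the 14 member regions in that upper part, 7 were matched in both (50%), against 42.7% of all regions there. In 6 of these 7 the ratio was higher in replicate 2, with the site upstream of bcd near Ama as the exception. The same share over all regions matched in both replicates was not computed. At rank 1272 of each whole list the ratio was 2.36 in replicate 1 and 2.68 in replicate 2, so the 6 of 7 is not read as particular to these genes. Seen from the single replicates, 7 of 28 regions of either one had a counterpart in the other (25%, against 22.7% of all regions). Intervals cover counting error over regions only, and regions of 1 gene share their locus.

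Start sites and distal sequence were then set side by side. Of the 23 regions, 6 (26.1%, Wilson 95% interval 12.5 to 46.5) had a summit within 500 bp of any annotated start site, against 30.1% of all pooled regions. These were the promoter region of bcd, 1 region each at hb, kni and odd, and 2 at the starts of Ama, so 4 of 23 were at a member's own start. The 17 distal regions were the larger class, as they are in the whole list. The median rank was 12848 for the regions at start sites and 12196 for the distal ones, and over all pooled regions 11430 and 16329. The median ratios at the members were 1.12 at start sites and 1.08 for the distal regions. Ranks follow the same signal, so this is not a second, opposing measure. The median of the 6 start-site regions averages its middle 2, at ranks 7094 and 18602 with ratios of 1.32 and 0.918. With 6 regions at start sites, whose ranks run from 1270 to 27298, no order between the classes can be read at these genes. Both replicates held 3 of the 6 regions at start sites and 4 of the 17 distal ones (50% and 23.5%, against 29.8% and 20.2% over the list).

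By place, 11 regions were upstream of the member, 7 within its body and 5 downstream. By annotation of the summit base, 12 were intergenic, 3 in coding sequence, 3 in introns, 3 in exons of non-coding RNAs, 1 in a 5' UTR and 1 in a 3' UTR. Of the 23 pooled regions 1 was in the IDR list (4.24% of all pooled regions are). The outermost regions counted lay 4918 bp from eve and 4542 bp from bcd. Just beyond the limit of 5000 bp, and not counted, were regions 5164 bp from Kr (rank 8701), 5222 bp from odd (rank 17865) and 5435 bp from kni (rank 6274).

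The density of pooled regions at the members was low next to the average gene. The windows of the 10 genes sum to 134.8 kb and held 1.71 pooled regions per 10 kb, against 2.93 over the windows of all protein-coding genes and 2.24 over the 6 arms, so the ratio to gene windows was 0.581. bcd (4.4 per 10 kb) and kni (3.07) stood above the median gene (2.84), and odd (2.39), run (1.8), eve (1.74), Kr (1.35), ftz (0.839), tll (0.827), hb (0.594) and gt (0) below it. Few other protein-coding genes start near the members, though a window can still overlap another transcription unit, as that of Kr does. In 8 of the 10 windows, those of bcd and gt excepted, no other protein-coding gene starts, whereas the median window of all genes holds the start of 3 others. The 1319 protein-coding genes with no such neighbour had 1.42 pooled regions per 10 kb, and the 8 members among them 1.55 (ratio 1.09). Among those genes 6.67% had an IDR region in the window, and 0 of the 8 members did. A pooled region was in the window of 77.3% of those genes and of each of the 8 members. The part of this lack of neighbouring starts in the low density was not tested.

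**Figure D3:**
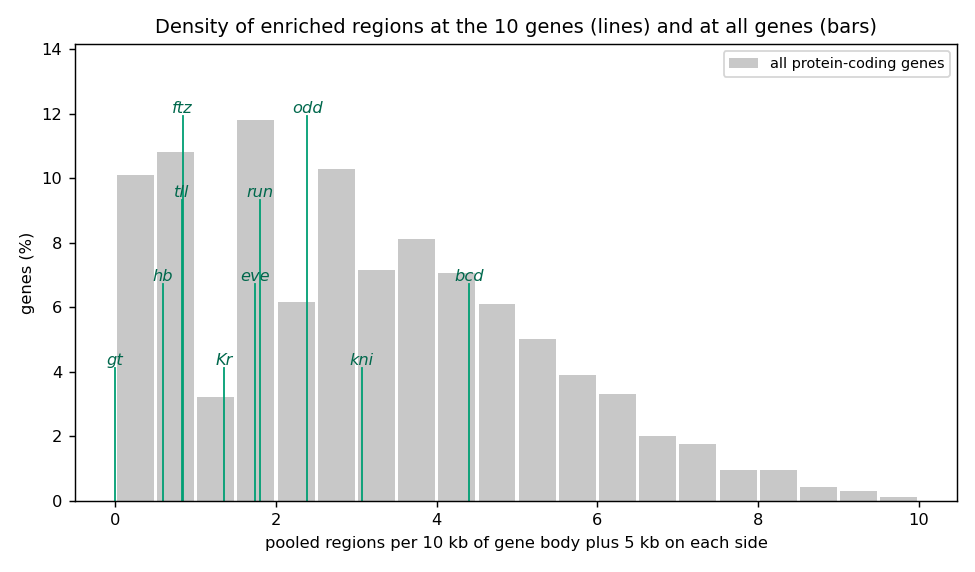
Pooled regions per 10 kb of gene body plus 5 kb on each side, for all protein-coding genes (grey bars, % of genes; values of 10 or more are not drawn) and for each of the 10 listed genes (green lines, whose heights only separate the labels). Of the 10 genes, bcd and kni lie above the median gene at 2.84.

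Distance to the nearest IDR region gave a picture that does not depend on the window. From the closest start site of the gene, it was 203 bp for bcd, 17412 bp for ftz, 19408 bp for eve, 25204 bp for hb and 25769 bp for odd. It was 34789 bp for tll, 35669 bp for run, 59226 bp for Kr, 103218 bp for kni and 124856 bp for gt. The median was 30279 bp for the members and 27862 bp for all protein-coding genes, with 5 members on either side of the latter. For bcd, 4.24% of genes had a nearer IDR region, and for gt 88.6%. The best pooled rank in the window had a median of 8001 over the 9 members with a region and 4244 over all genes with one. bcd, odd (3666) and Kr (4061) had better ranks than that median gene, and kni, hb, run, tll, eve and ftz worse ones.

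**Figure D4:**
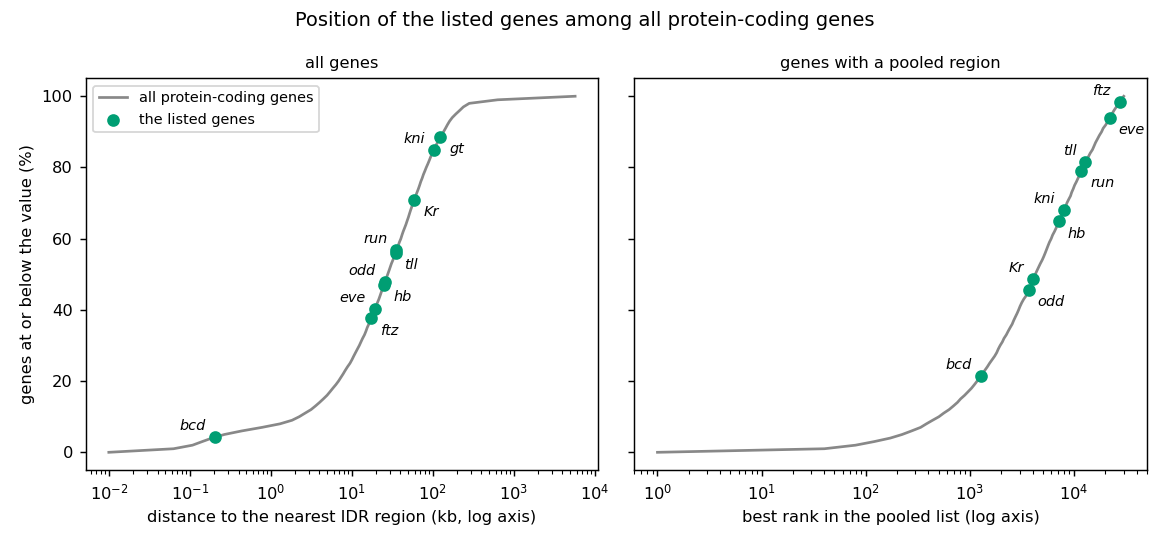
Cumulative distributions over protein-coding genes (grey) of the distance from a gene's start sites to the nearest IDR region (kb, left) and of the best rank in the pooled list (right, genes with a pooled region), both on log axes. Green points place the listed genes on the curves; gt has no pooled region and appears on the left only, where it is farthest of the 10 at 124856 bp.

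The sequence around the summits showed few of the words searched. Both strands were searched, from 50 bp before the summit to 50 bp after it. ACGTG stood at 2 of the 23 members' regions (8.7%, against 8.43% of all pooled regions), upstream of tll and at the start of odd, and GCGTG also at 2 (8.7%, against 12.1%), at the bcd promoter and in the coding sequence of run. In the printed bcd promoter both GCGTG and GAGAG appear as their reverse complements. GAGAG was at 3 regions (13%, against 11.3%), at the bcd promoter, inside kni and upstream of tll. CAGGTAG, the only word searched for the early activator Zelda, was at 0 of 23, against 0.637% of all regions. Other forms of the Zelda site were not searched.

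TAATCC, the core of Bicoid sites, was at 3 regions (13%, against 3.15%): inside kni, upstream of kni and upstream of eve. The internal kni sequence printed above holds it as its reverse complement at 2 places, but that region ranked 27298 and neither replicate matched it. Neither replicate matched the eve region, 1036 bp upstream at rank 23115. The kni region 2959 bp upstream, at rank 10475, was matched in replicate 2 alone, so none of the 3 was seen in both replicates. Regions of 1 gene are not independent, and a word is a run of letters, not a measured site. The median G+C content within 50 bp of the summit was 44.6% for the 23 regions (23.8 to 65.3), 40.6% for all pooled regions and 33.7% for IDR regions. The hb region is a run rich in A, at 35.6% G+C, and the regions upstream of bcd near Ama (23.8%) and downstream of odd (28.7%) were also rich in A and T, while the kni coding region had 65.3%.

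A wider list of 32 other early patterning genes gives the setting. The list classed 7 genes as maternal, 9 as gap, 6 as pair-rule, 8 as segment polarity and 2 as early activators. These classes, with Ppa counted under pair-rule, are those of the list and were not checked. IDR regions lay in the windows of 7 of 32 (21.9%, against 19.6% of all genes) and at the start sites of 3 (9.38%, against 6.22%). Pooled regions lay in all 32 windows and at the start sites of 18 (56.2%, against 48%). The median density of the wider list was 2.99 pooled regions per 10 kb, and that of the 10 members 1.55. The 3 with an IDR region at a start site were fkh, a forkhead gene of the gut ends, nkd, a Wingless antagonist, and Trl, which encodes GAGA factor. The fkh region ranked 550, 242 bp upstream of the start, with ratios of 4.5 and 2.12 in replicates 1 and 2. The nkd region ranked 909, 63 bp upstream (ratios 3.22 and 1.66), and that at the Trl start 566 (2.64 and 4.91).

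The other IDR regions of the wider list were distal to the listed gene. The pair-rule gene slp2 had one 4297 bp upstream at rank 156, in intergenic sequence, with ratios of 5.35 and 6.68, close to each other and far above any region of the 10 members. Trl had a second, intronic region at rank 36, upstream of a start site of Trl and equally far from the start of CG42507. Regions in the windows of the maternal genes nanos (rank 490), osk (rank 976) and trk (rank 1114) lay at the starts of the neighbours Nsun5, pyd and Utx.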

How the data were processed

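Regions were those the authors deposited for dm6 in narrowPeak layout: relaxed lists of 30000 regions for replicate 1, replicate 2 and the pooled reads, each called against a control per the accompanying text files, and the IDR list. The signal value of each region was deposited as the peak caller gave it. Which peak caller and IDR threshold were used is not given in the sources used here. No file holds a read number, and depth is therefore unknown for both samples. The IDR list was checked to be the 1272 strongest pooled regions. The 4 lists on the older build were not used.

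Genes and start sites came from Ensembl release 115 (BDGP6.54) and sequence from the Release 6 genome in RefSeq; region coordinates fitted its arm lengths. Ranks, ratios to the list median, overlaps and shares were computed with Python 3.11.15, using pandas 2.3.3 and numpy 2.4.6 for tables, scipy 1.17.1 for intervals and matplotlib 3.10.9 for figures. A region was at a gene when its summit lay in the body or within 5000 bp, at a start site within 500 bp of any annotated transcript start, and matched within 100 bp of the nearest summit. Counting steps were tested on simulated data. All 32 genes of the wider list were found, 3 under newer symbols looked up after the data were seen. The named genes are all 10 members, listed genes of the wider list with an IDR region, and the genes with the nearest protein-coding start. Members and lists were chosen with earlier results of these data known. The comparison with genes that have no other protein-coding start in the window was added after seeing the values. With 1 group of 2 samples no test was run.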

Additional observations from a re-analysis of the deposited data

How the results depend on the processing

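No paired analysis was possible because the series has 1 group. The count of members with an IDR region, in the window or at a start site, was 0 among the upper 636 regions of the IDR list. With 1 replicate left out, the 1272 strongest regions of the other replicate's relaxed list stood in for the IDR list. The count was then 1 with replicate 2 alone and 0 with replicate 1 alone. In the IDR list itself, the count was also 0 among the 8 members with no other protein-coding start in the window. The number of members with a pooled region at a start site fell from 4 to 2 in the upper 15000 of the pooled list and with a distance of 250 bp. The 23 pooled regions became 14 in the upper 15000, 14 within 2000 bp and 47 within 10000 bp. The density relative to all gene windows, 0.581, was 0.673 in the upper 15000, 0.65 within 2000 bp and 0.684 within 10000 bp. With 1 replicate left out it was 0.689 to 0.764. Among genes with no other protein-coding start in the window the ratio was 1.09, where the direction turned. The cause of these moves was not tested, other than the smaller or larger windows and lists themselves.

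The best rank with 1 replicate left out ran from 897 to 3117 at bcd, 9258 to 14901 at hb, 6447 to 12363 at Kr, 6212 to 6465 at kni, 6777 to 19368 at tll, 19872 to 22766 at ftz, 7241 to 18343 at run and 2035 to 13350 at odd. At eve it was 15558 with replicate 2 alone, and replicate 1 gave none. gt had no pooled region and so no rank. Over the alternatives the share of regions at start sites, 26.1%, ran from 13 to 28.6% and the share matched in both replicates, 30.4%, from 21.7 to 50%, all inside the Wilson 95% intervals of the reported shares. Those 2 shares rest on 23 regions, and the ranks of single genes on 2 libraries of unknown depth.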
